A study of Caenorhabditis elegans with 78 samples.

Results

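The moulting proteases and apical matrix genes described here are the genes whose names start with mlt-, nas-, noah-, lpr-, cut-, cutl- or zmp-, together with fbn-1 and let-653. The count tables list 42048 genes, and 89 of them fit this rule. They are 36 nas genes (astacin metalloproteases), 35 cuticlin and cuticlin-like genes (cut and cutl), 7 lpr genes (lipocalin-related proteins), 6 mlt genes (named for moulting defects), 2 noah genes, zmp-1, fbn-1 and let-653. The names mlt-2, mlt-3 and zmp-2 were looked for and are not in the tables used here.

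A nematode replaces its cuticle at the end of each larval stage and does not moult as an adult. The epidermis loosens from the old cuticle, secretes a transient apical matrix of zona pellucida (ZP) domain proteins and lipocalins, lays down collagens and cuticlins for the new cuticle, and releases astacin proteases with which the old cuticle is shed. Many of these genes are transcribed in pulses that recur with each larval cycle.

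RNA of whole young adults of Caenorhabditis elegans was sequenced from 4 cultures of each of 6 strains. All were grown at 25°C and collected in generation F3, and the study's methods describe the cultures as independent. The 5 mutant strains were jmjd-5(zr1234), which carries point mutations in the JmjC demethylase domain of jmjd-5; jmjd-1.2(zr1010), jmjd-3.1/2/3, a quadruple mutant and a double mutant. jmjd-3.1/2/3 combines jmjd-3.1(gk384) with jmjd-3.2(tm3121) and with jmjd-3.3(tm3197). The quadruple mutant (plotted as jmjd-5;jmjd-3.1/2/3) adds the zr1234 allele to these, and the double mutant (plotted as jmjd-5;jmjd-1.2) joins zr1234 with zr1010. N2 was the wild-type strain. Each mutant line is 1 strain, and the mutations are present in every cell, so that the comparisons say nothing of the tissue in which a gene acts.

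Library totals ran from 3087933 to 9906241 counts. The N2 libraries held between 3927979 and 6372354 counts, and culture 2 of the quadruple mutant (3087933) and culture 2 of the double mutant (3751667) held fewer than any of them. Both of these mutant libraries also differed from the others of their strain in oocyte and eggshell markers, whose 8 genes summed to 4907 CPM and 4878 CPM there, a range otherwise seen in N2 (3590 to 4919 CPM). CPM are counts per 1000000 of the library total after scaling by trimmed mean of M values (TMM). The counting is not stated to use strand, so that reads of overlapping genes cannot be told apart. Gene lengths were not available, so that a CPM is compared between strains, for 1 gene or for the same sum of genes. Where members are split by mean CPM, or the part of 1 gene in a sum is given, gene length is not allowed for.

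Of the 89 members, 88 had at least 1 count (nas-2 had none) and 81 passed the filter on low counts and were tested. The 8 under the filter were cut-1, cutl-1, cutl-7, nas-2, nas-10, nas-16, nas-18 and nas-19, whose highest count in any library was 19. The members tested passed in part because of the strains in which they were high, so that counts over them describe the tested members and not the whole family. A member was called higher or lower in a strain at an adjusted p under 0.01 (edgeR quasi-likelihood test, Benjamini-Hochberg adjustment over all 15524 tested genes) with a log2 fold change no smaller than 1 in size, and "rose" and "fell" are used for such calls.

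Summed over all 89 members, the level was higher in every mutant library than in any N2 library. The sum ran from 1989 to 2320 CPM in jmjd-5(zr1234), with a median of 2197 CPM. In jmjd-1.2(zr1010) it ran from 1484 to 1954 CPM (median 1768), and in jmjd-3.1/2/3 from 1612 to 2059 CPM (median 1888). The quadruple mutant was the lowest of the mutants, at 1367 to 1843 CPM (median 1486). The double mutant reached 2552 CPM but spread down to 1569 CPM in culture 2 (median 2277). N2 lay between 904 and 1076 CPM (median 1028). The ratio of medians to N2 was therefore 2.14 in jmjd-5(zr1234), 2.22 in the double mutant, 1.84 in jmjd-3.1/2/3, 1.72 in jmjd-1.2(zr1010) and 1.45 in the quadruple mutant. The 2 shallow mutant libraries stood at 1381 CPM (quadruple mutant) and 1569 CPM (double mutant).

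**Figure D1:**
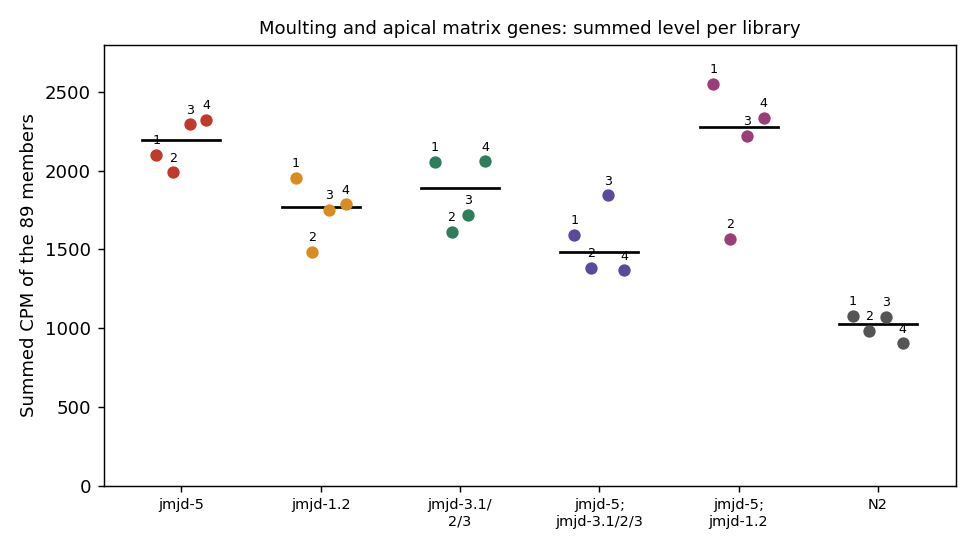
Summed CPM of the 89 members (vertical axis, from 0) in each of the 24 libraries, by strain; points are cultures, with their number beside them, and bars are medians of 4. The N2 libraries sit between 904 and 1076 CPM, below all 20 mutant libraries, which start at 1367 CPM.

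In jmjd-5(zr1234) animals, members of the mlt, nas, noah, lpr, cut and cutl families and fbn-1 rose, while let-653 and zmp-1 were not called. Of 81 members tested, 47 rose and 1 fell, and 33 were not called, where 16.5% of all tested genes were called higher and 1.53% lower. The median log2 fold change of the members was 1.39, against 0.07 over all tested genes. All 4 mutant cultures lay above all 4 N2 cultures for 63 members and below them for 1, where 36.5% of all tested genes lay above and 33.8% below. The largest increases were those of nas-6 (log2 fold change 3.61 ± 0.41, SE), mlt-11 (3.33 ± 0.40), lpr-4 (3.12 ± 0.32), nas-15 (3.00 ± 0.45) and cutl-8 (2.96 ± 0.45), and the 1 member that fell was nas-3 (−2.68 ± 0.32).

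In the other 4 mutants, each set against the same 4 N2 libraries, more members rose than fell as well. In jmjd-1.2(zr1010), 37 members rose and 3 fell (8.71% and 0.606% of all tested genes), with a median of 1.12 over the members and 0.06 over all genes. Its cultures lay above N2 without overlap for 49 members and below for 5 (25.8% and 24.6% of all genes). In jmjd-3.1/2/3, 41 rose and 3 fell (10.2% and 0.966% of all tested genes), with medians of 1.39 and −0.01, and 45 members lay above N2 and 3 below without overlap (25.6% and 26.3%). In the quadruple mutant, 28 rose and 1 fell (7.75% and 0.464%), with medians of 0.90 and 0.06, and 46 lay above and 2 below (22.4% and 10.8%). In the double mutant, 48 rose and 1 fell (16.8% and 1.08%), with medians of 1.56 and 0.04, and 50 lay above and 2 below (24.9% and 14.9%). N2 had the lowest mean of the 6 strains for 65 of the 81 members, and the double mutant had the highest for 32, jmjd-5(zr1234) for 23 and jmjd-3.1/2/3 for 18. The N2 libraries are shared by all 5 comparisons, so that these are not independent of each other.

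**Figure D2:**
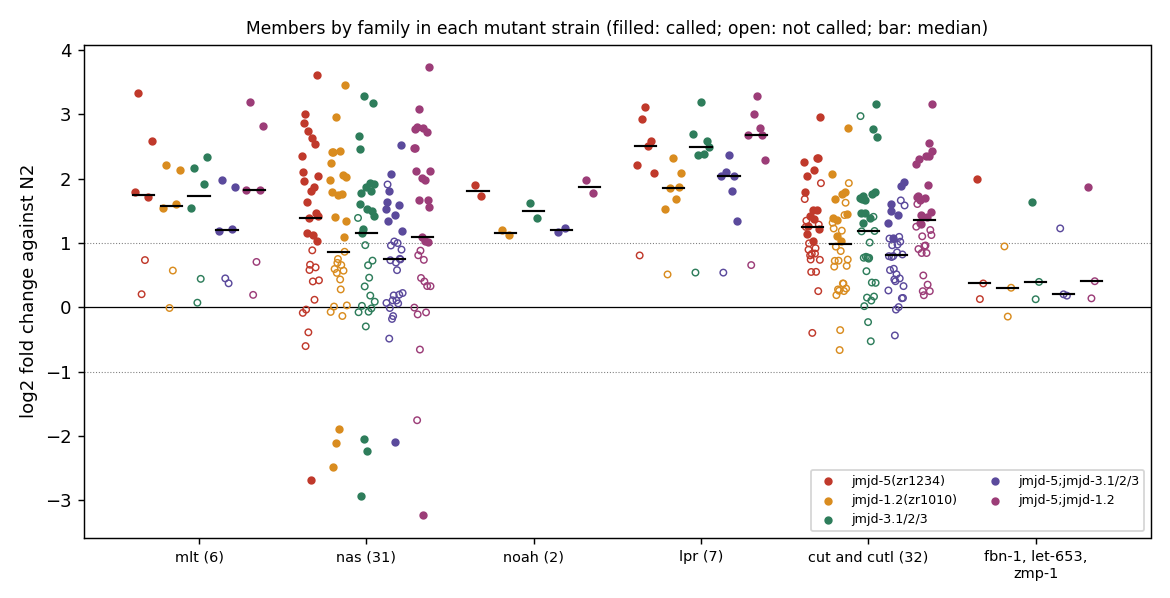
log2 fold change against N2 (vertical axis) of the 81 tested members, grouped by family along the horizontal axis and coloured by mutant strain; filled points were called, open points were not, bars are medians, and dotted lines mark 1 and −1. The lpr genes have the highest median in every strain, and the few points below −1 that were called are all nas genes.

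Of the 6 mlt genes, 4 rose and 2 were not called in each mutant strain, where 7.75% to 16.8% of all tested genes were called higher. mlt-11 encodes a secreted protein with Kunitz-type protease inhibitor domains. It stood at 89.9, 74.6, 89.8 and 107 CPM in jmjd-5(zr1234) cultures, against 10.5, 11.3, 8.63 and 4.79 CPM in N2 cultures. The fold was 10.1 (adjusted p = 3.2e-07, edgeR). In the other strains mlt-11 spanned 33.5 to 46.7 CPM (jmjd-1.2(zr1010)), 20.4 to 54.4 CPM (jmjd-3.1/2/3), 15.1 to 65.9 CPM (the quadruple mutant) and 42.6 to 120 CPM (the double mutant), and no mutant culture overlapped N2.

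mlt-9 stood at 46.9, 41.7, 51.2 and 59.0 CPM in jmjd-5(zr1234), against 7.62, 10.2, 11.5 and 4.31 CPM in N2, a log2 fold change of 2.59 ± 0.31. mlt-8 stood at 67.4, 63.5, 83.5 and 76.8 CPM in jmjd-5(zr1234), against 24.9, 20.6, 30.5 and 12.9 CPM in N2 (1.72 ± 0.18). mlt-10 stood at 88.6, 72.4, 103 and 101 CPM in jmjd-5(zr1234), against 28.7, 26.0, 33.1 and 18 CPM in N2 (1.79 ± 0.28). N2 culture 4 was the lowest N2 culture for all 4 of these genes. mlt-8, mlt-9, mlt-10 and mlt-11, all needed for a complete moult, rose in each of the 5 mutants. Their smallest changes were in the quadruple mutant, from 1.19 ± 0.29 for mlt-10 to 1.98 ± 0.44 for mlt-11, and without its culture 3, mlt-10 was no longer called there (adjusted p = 0.0023 with all cultures, and 0.00016 to 1 over the alternatives tried).

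The other mlt genes were not called in any strain. mlt-7, a haem peroxidase that crosslinks cuticle collagen, stood at 166, 176, 172 and 188 CPM in jmjd-5(zr1234), against 112, 98, 118 and 93.9 CPM in N2. Its groups did not overlap and its adjusted p was 1.8e-06, but the log2 fold change of 0.73 ± 0.10 was under the minimum size. In the other mutants it changed by 0.37 to 0.71 on the log2 scale. mlt-4, an ankyrin repeat protein of the inversin type that works with NEKL kinases, stood at 11.5 to 16.1 CPM in jmjd-5(zr1234) and at 10.1 to 14.5 CPM in N2, and those ranges overlapped.

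The astacins, zinc proteases secreted or bound at the surface, were the family with changes in both directions. In jmjd-5(zr1234), 19 of the 31 tested nas genes rose, 1 fell and 11 were not called, with a median of 1.39. In jmjd-1.2(zr1010), 15 rose and 3 fell. jmjd-3.1/2/3 gave 15 and 3 as well. In the quadruple mutant, 9 rose and 1 fell, and in the double mutant, 18 rose and 1 fell. In the same order of strains, 16.5%, 8.71%, 10.2%, 7.75% and 16.8% of all tested genes were called higher. The shares called lower were 1.53%, 0.606%, 0.966%, 0.464% and 1.08%.

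nas-6 and nas-7 encode astacins needed to form the grinder of the pharynx. nas-6 stood at 7.12, 7.23, 9.48 and 11.4 CPM in jmjd-5(zr1234), against 0.952, 0.452, 0.288 and 0.959 CPM in N2. These N2 values rest on 1 to 6 counts a library and 13 in all, so that the fold of 12.2 is imprecise. It had the largest increase of any member in jmjd-5(zr1234) and also in jmjd-1.2(zr1010) (3.45 ± 0.42), the quadruple mutant (2.53 ± 0.47) and the double mutant (3.74 ± 0.41). nas-7 stood at 56, 58.4, 68.1 and 68.0 CPM in jmjd-5(zr1234), against 26.7, 20.6, 29.9 and 16.3 CPM in N2 (1.42 ± 0.17). It rose also in jmjd-1.2(zr1010), jmjd-3.1/2/3 and the double mutant, while its change in the quadruple mutant was 0.90 ± 0.18 (adjusted p = 0.00044), under the minimum size. The 4 pharyngeal markers in the tables (myo-1, myo-2, ceh-22 and tnt-4) summed to 963 to 1004 CPM in jmjd-5(zr1234), 660 to 778 CPM in jmjd-1.2(zr1010), 166 to 662 CPM in jmjd-3.1/2/3, 430 to 732 CPM in the quadruple mutant and 615 to 770 CPM in the double mutant, against 443 to 560 CPM in N2. The sums overlapped N2 in jmjd-3.1/2/3 and in the quadruple mutant and lay above it in the other mutants, and their part in the changes of nas-6 and nas-7 was not tested.

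nas-36, nas-37 and nas-38 are the astacins best known from moulting. nas-36 stood at 37.8, 31.7, 52.6 and 40.6 CPM in jmjd-5(zr1234), against 11.9, 8.14, 15.5 and 9.35 CPM in N2 (1.87 ± 0.25). nas-38, which also affects the timing of the sleep that accompanies a moult, stood at 41.6, 46.1, 58.0 and 48.2 CPM in jmjd-5(zr1234), against 9.68, 8.82, 9.78 and 4.55 CPM in N2 (2.55 ± 0.29). Neither gene's groups overlapped. nas-37, whose product helps to open the old cuticle, was not called. It stood at 125, 122, 112 and 121 CPM in jmjd-5(zr1234), against 110, 111, 110 and 112 CPM in N2. Its log2 fold change was 0.12 ± 0.06 (adjusted p = 0.071) in jmjd-5(zr1234) and lay between −0.14 and 0.18 in the other mutants, with no call in any strain.

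nas-11 and nas-20 likewise were measured precisely and were not called. nas-11 stood at 127 to 138 CPM in jmjd-5(zr1234) and at 135 to 146 CPM in N2 (−0.09 ± 0.06). nas-20 stood at 89.4 to 92.0 CPM in jmjd-5(zr1234) and at 89.6 to 101 CPM in N2 (−0.04 ± 0.06). Their values in the other 4 mutants differed from N2 by −0.11 to 0.07 on the log2 scale. nas-20 is the neighbour of nas-21 and nas-22 on the chromosome (RefSeq gene order, WBcel235), of which nas-22 rose in jmjd-5(zr1234) by 1.64 ± 0.21 and nas-21 by 1.15 ± 0.35. The differences among these 3 neighbours were not tested, and reads that match more than 1 place had been removed by the authors, so that genes of similar sequence may have lost counts.

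Among the remaining astacins, nas-15, nas-13, nas-23 and nas-30 had the largest increases in jmjd-5(zr1234). nas-15 stood at 21.4, 19.5, 27.3 and 26.7 CPM in jmjd-5(zr1234), against 2.70, 3.39, 4.6 and 1.44 CPM in N2. nas-23 was highest in jmjd-3.1/2/3, where it stood at 27.4, 26.3, 12.3 and 22.3 CPM, against 2.54, 1.81, 4.6 and 0.240 CPM in N2 (3.29 ± 0.38, the largest increase in that strain). nas-30 stood at 34.1, 31.1, 45.3 and 51.3 CPM in jmjd-5(zr1234), against 8.73, 6.33, 6.33 and 3.83 CPM in N2 (2.63 ± 0.34). nas-15, nas-23 and nas-30 rose in each mutant strain. nas-13 rose in all but the quadruple mutant, with 5.32, 3.48, 3.87 and 2.39 CPM in jmjd-1.2(zr1010), against 1.43, 0.452, 0 and 0.479 CPM in N2 (2.42 ± 0.54). nas-15 was less firm in jmjd-3.1/2/3 (1.78 ± 0.50), where culture 2 held 2.17 CPM and overlapped N2, and the call was lost without culture 3 or 4 of that strain or N2 culture 1, 2 or 4 (adjusted p = 0.0051 with all libraries, and 0.00026 to 0.36 over the alternatives). In the quadruple mutant the calls of nas-15 (1.81 ± 0.50) and nas-30 (1.44 ± 0.37) were lost without its culture 3 or 4 or N2 culture 4, and that of nas-15 also without N2 culture 1 or 2.

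nas-3 fell in each of the 5 mutants. It stood at 1.42, 1.23, 1.65 and 1.55 CPM in jmjd-5(zr1234), 1.34 to 3.55 CPM in jmjd-1.2(zr1010), 1.18 to 3.17 CPM in jmjd-3.1/2/3, 0.865 to 3.31 CPM in the quadruple mutant and 0.559 to 1.45 CPM in the double mutant. In N2 it stood at 12.1, 7.47, 7.76 and 10.1 CPM, with 27 to 76 counts a library. All 20 mutant libraries lay below all N2 libraries, and the log2 fold changes ran from −3.24 ± 0.34 (the double mutant) to −1.89 ± 0.28 (jmjd-1.2(zr1010)).

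nas-17 and nas-24 fell both in jmjd-1.2(zr1010) and in jmjd-3.1/2/3. They rest on few counts. nas-17 stood at 0.473, 0.791, 0.283 and 0 CPM in jmjd-1.2(zr1010) and at 0.882, 0, 0.162 and 0 CPM in jmjd-3.1/2/3, against 1.59, 2.94, 2.88 and 1.68 CPM in N2, where the 4 libraries held 40 counts. The log2 fold changes were −2.49 ± 0.69 and −2.94 ± 0.77, against −0.60 ± 0.54 in jmjd-5(zr1234), −0.49 ± 0.54 in the quadruple and −1.76 ± 0.64 in the double mutant, which were not called. The call in jmjd-1.2(zr1010) was lost without that strain's culture 1, 3 or 4 or N2 culture 2 or 3, and the call in jmjd-3.1/2/3 without its culture 2 or 4 or N2 culture 2. nas-24 stood at 0.355 to 0.949 CPM in jmjd-1.2(zr1010) and at 0.335 to 1.03 CPM in jmjd-3.1/2/3, against 1.11, 4.07, 5.18 and 0.959 CPM in N2. The ranges of jmjd-3.1/2/3 and N2 overlapped, and the N2 cultures fell into a lower pair (1 and 4) and a higher pair (2 and 3). The call in jmjd-1.2(zr1010) (−2.11 ± 0.60) was lost without that strain's culture 1, 3 or 4 or N2 culture 2 or 3, and the call in jmjd-3.1/2/3 (−2.05 ± 0.62) was lost in 17 of the 24 fits that leave out 1 library. nas-17 lies between nas-18 and nas-19 on the chromosome, both under the filter on low counts.

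The ZP domain proteins of the transient matrix differed among themselves. noah-1 and noah-2, whose Drosophila relative NompA anchors sensory endings to the cuticle, build the sheath of the embryonic and moulting epidermis. noah-1 stood at 100, 88.9, 103 and 108 CPM in jmjd-5(zr1234), against 31.4, 31.7, 21.6 and 20.6 CPM in N2 (1.90 ± 0.27). noah-2 stood at 94.7, 88.3, 94.1 and 107 CPM in jmjd-5(zr1234), against 30.0, 31.4, 27 and 26.8 CPM in N2 (1.73 ± 0.24). Both rose in each of the 5 mutants and no mutant library overlapped N2. The increases were smallest in jmjd-1.2(zr1010) (1.21 ± 0.27 and 1.12 ± 0.24) and the quadruple mutant (1.17 ± 0.27 and 1.23 ± 0.24). Without culture 3 of the quadruple mutant, which held 92.7 CPM of noah-1 where its other cultures held 34.7 to 67.1 CPM, noah-1 changed by 0.90 there and was no longer called.

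fbn-1, a fibrillin-like matrix protein of the epidermis, stood at 25.6, 29.1, 24.5 and 30.8 CPM in jmjd-5(zr1234), against 6.67, 9.05, 5.46 and 6.23 CPM in N2 (1.99 ± 0.39). It rose also in jmjd-3.1/2/3 (1.64 ± 0.40) and the double mutant (1.88 ± 0.40). In jmjd-1.2(zr1010) it stood at 11.0, 11.4, 19 and 10.9 CPM (0.95 ± 0.42) and in the quadruple mutant at 15.7, 12.6, 26.1 and 9.09 CPM (1.23 ± 0.42), with no call in either. let-653, a mucin-like ZP protein that lines narrow tubes such as the excretory duct, stood at 22.8 to 26.4 CPM in jmjd-5(zr1234) and at 20.4 to 25.1 CPM in N2 (0.13 ± 0.12). In no strain did let-653 change by more than 0.20 in size on the log2 scale. cutl-27, its neighbour on the chromosome, rose in jmjd-5(zr1234) by 1.51 ± 0.50, with N2 libraries between 0.226 and 0.719 CPM.

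Lipocalin-related proteins bind small lipophilic molecules in the apical matrix, and lpr-1 and lpr-3 are needed to keep epithelial tubes open. They were the family with the highest median in every mutant strain among families of more than 2 tested genes, at 2.50 in jmjd-5(zr1234), 1.85 in jmjd-1.2(zr1010), 2.50 in jmjd-3.1/2/3, 2.04 in the quadruple mutant and 2.68 in the double mutant. In each strain 6 of the 7 rose, and the exception each time was lpr-2 (0.51 to 0.81). Of all tested genes, 7.75% to 16.8% were called higher in these strains. lpr-3 stood at 53.6, 48.1, 59.6 and 58.8 CPM in jmjd-5(zr1234), against 8.25, 8.6, 6.33 and 5.03 CPM in N2 (2.93 ± 0.36). lpr-4 stood at 38.3, 32.6, 38.6 and 42.4 CPM in jmjd-5(zr1234), against 3.65, 7.24, 3.16 and 3.35 CPM in N2 (3.12 ± 0.32). lpr-1 stood at 4.66, 7.38, 7.42 and 8.26 CPM in jmjd-5(zr1234), against 1.43, 1.58, 1.44 and 1.44 CPM in N2 (2.22 ± 0.34). lpr-3, lpr-6, lpr-5 and lpr-4 lie next to each other on the chromosome, and all 4 rose in every mutant strain. Reads that run from 1 of these genes into the next cannot be told apart.

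Cuticlins are proteins of the insoluble cuticle, and many, but not all, carry a ZP domain. Of 32 tested cut and cutl genes, 15 rose in jmjd-5(zr1234), 10 in jmjd-1.2(zr1010), 13 in jmjd-3.1/2/3, 7 in the quadruple mutant and 17 in the double mutant, and those not called made up the rest. In the same order of strains, 16.5%, 8.71%, 10.2%, 7.75% and 16.8% of all tested genes were called higher. cut-2, a component of the insoluble, dityrosine-linked residue of the cuticle, stood at 82.9, 83.1, 109 and 106 CPM in jmjd-5(zr1234), against 24.3, 14.3, 33.9 and 7.91 CPM in N2 (2.26 ± 0.25). It rose in each mutant, down to 1.32 ± 0.26 in the quadruple mutant. cutl-8 stood at 5.83, 6, 6.32 and 6.06 CPM in jmjd-5(zr1234), against 0.952, 1.36, 0.575 and 0 CPM in N2, and rose in all 5 mutants from 14 N2 counts in all. Its call in the quadruple mutant (1.94 ± 0.52, adjusted p = 0.0049) was lost without culture 3 or 4 of that strain or culture 1, 3 or 4 of N2, with an adjusted p of 0.00032 to 0.44 over the alternatives.

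cut-6, needed for the body shape of the dauer larva, was near the threshold. It stood at 2.98, 1.54, 2.34 and 2.45 CPM in jmjd-5(zr1234), against 1.90, 0.226, 0.288 and 0.719 CPM in N2, and was not called (1.35 ± 0.45, adjusted p = 0.011). It rose in jmjd-3.1/2/3 (1.68 ± 0.44, not called without culture 1 of that strain or N2 culture 2) and the double mutant (1.73 ± 0.43). Leaving out N2 culture 1, the highest, gave 2.46 in jmjd-5(zr1234) with a call, and the adjusted p ran from 0.00048 to 0.57 over the alternatives. cutl-28 had the fifth largest increase among the members called in jmjd-3.1/2/3, with 8.97, 6.69, 5.33 and 7.34 CPM there, against 1.75, 0.905, 0.575 and 0.479 CPM in N2 (2.77 ± 0.47). cut-3 differed by more in that strain but was not called, and its cultures overlapped N2 (2.97 ± 1.15, adjusted p = 0.033). cut-1 had at most 11 counts in a library and was not tested. zmp-1, a matrix metalloproteinase of the invading anchor cell, stood at 9.84 to 14.1 CPM in jmjd-5(zr1234) and at 6.95 to 11.9 CPM in N2 (0.37 ± 0.19), with no call in any strain.

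**Figure D3:**
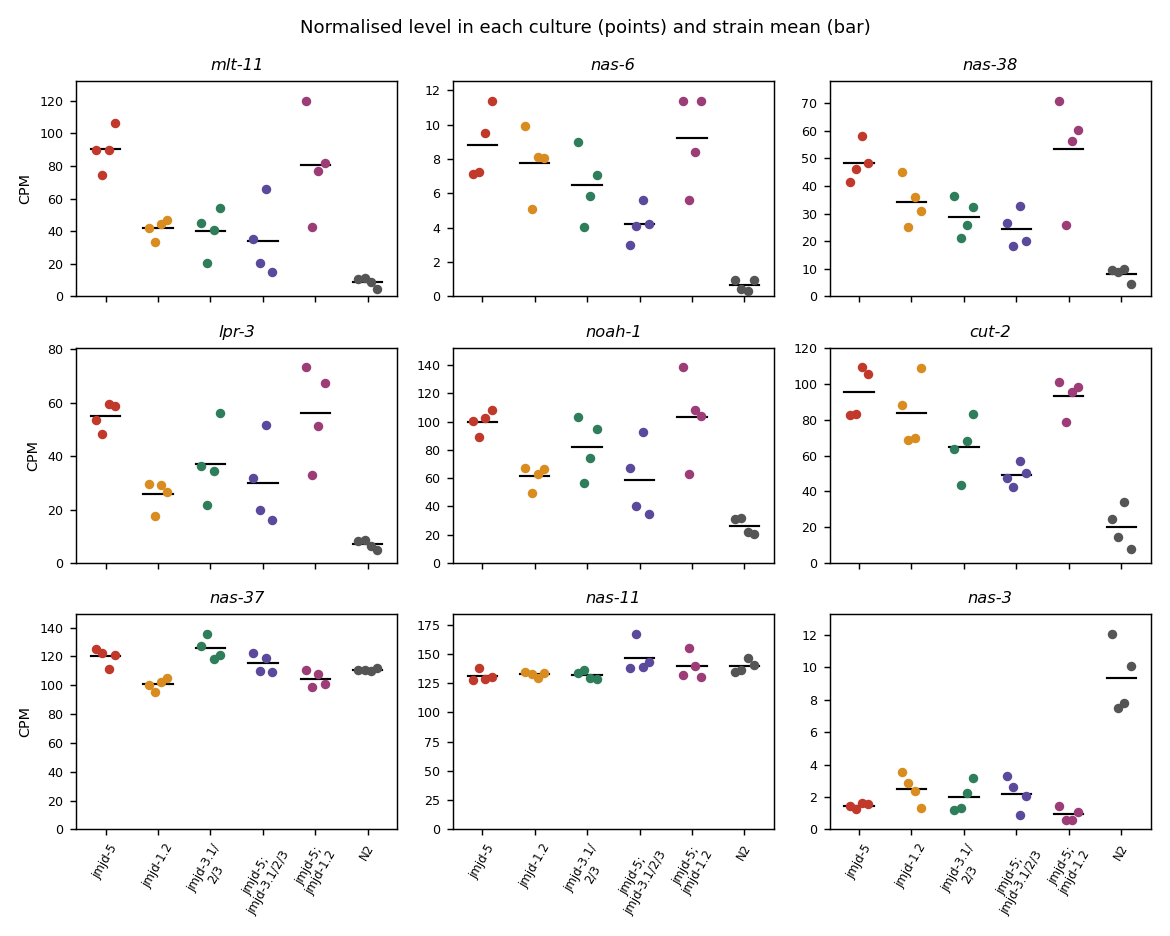
CPM (vertical axes, from 0, on a scale of its own for each gene) of 9 members in each culture (points) of the 6 strains along the horizontal axis, with the strain mean as a bar. mlt-11, nas-6, nas-38, lpr-3, noah-1 and cut-2 stand lowest in N2, nas-37 and nas-11 stand at like levels in all strains, and nas-3 stands at 7.47 to 12.1 CPM in N2 and at 3.55 CPM or below in every mutant library.

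Calls were made at low and at high levels. Split by their mean over all 24 libraries, 15 of the 24 members above 20 CPM rose in jmjd-5(zr1234), 20 of the 30 between 5 and 20 CPM, and 12 of the 27 below 5 CPM, where the median standard error was 0.43 against 0.21 for the middle group. Of all tested genes, 16.5% were called higher in that strain. The medians of the log2 fold changes of the members were 1.76 above 20 CPM, 1.2 in the middle group and 1.35 below 5 CPM. All 3 members that fell in any comparison with N2 were in the lowest group.

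Within each strain the median spread between cultures was larger over the members than over all genes. The median standard deviation of log2 CPM over the 4 cultures was 0.21 for the members and 0.08 for all tested genes in jmjd-5(zr1234), 0.26 and 0.15 in jmjd-1.2(zr1010), 0.35 and 0.12 in jmjd-3.1/2/3, 0.31 and 0.20 in the quadruple mutant, 0.47 and 0.22 in the double mutant, and 0.36 and 0.15 in N2. The same culture was often the extreme one. Culture 2 of the double mutant was the lowest of its strain for 69 of the 81 members and culture 1 the highest for 50. In the quadruple mutant, culture 3 was the highest for 47 and culture 2 the lowest for 43. In jmjd-1.2(zr1010), culture 1 was the highest for 47 and culture 2 the lowest for 53, and in N2, culture 4 was the lowest for 36. Culture 2 was the lowest for 45 in jmjd-5(zr1234) and for 35 in jmjd-3.1/2/3, where culture 3 was the lowest for 34. In each mutant strain, culture 2 was thus the most frequent lowest culture, and it also had the smallest library total of the strain. N2 cultures 2 and 4 agree within counting noise over all genes (mean chi-square 0.963 per gene) but not over the members (mean chi-square 2.34 over 54 members), and were kept as separate libraries, as were jmjd-5(zr1234) cultures 3 and 4 (1.03 per gene and 1.96 over the members).

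The quadruple and double mutants were also set against the strains whose alleles they combine, which asks whether adding alleles to a mutant strain changed these genes further. In the quadruple mutant against jmjd-5(zr1234), 6 of the 81 members fell and 75 were not called (1.04% of all tested genes were called lower and 0.947% higher), and the median of the members was −0.50, against 0.00 over all tested genes. The quadruple mutant lay below jmjd-5(zr1234) without overlap for 29 members and above for 2, where 18.4% and 14.7% of all tested genes did so. The 6 were mlt-11, nas-25, nas-30, nas-6, cutl-5 and cut-4. mlt-11 stood at 35.0, 20.8, 65.9 and 15.1 CPM in the quadruple mutant, against 89.9, 74.6, 89.8 and 107 CPM in jmjd-5(zr1234) (−1.35 ± 0.32, adjusted p = 0.0047). nas-25 stood at 1.66, 0.742, 2.45 and 1.63 CPM in the quadruple mutant, against 3.50, 4.46, 3.30 and 5.81 CPM in jmjd-5(zr1234) (−1.28 ± 0.30). nas-30 stood at 15.6, 12.2, 21.5 and 19.3 CPM, against 34.1, 31.1, 45.3 and 51.3 CPM in jmjd-5(zr1234) (−1.2 ± 0.27). These counts of calls lean on single libraries. Without jmjd-5(zr1234) culture 4 or quadruple mutant culture 4, 0 members were called. There was 1 without quadruple mutant culture 1 or 2, 2 without jmjd-5(zr1234) culture 3, and 12 without quadruple mutant culture 3. Shares of all tested genes in those fits are not given, so that these counts describe the members' calls alone.

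Against jmjd-3.1/2/3, 4 members fell in the quadruple mutant and 77 were not called (0.721% of all tested genes were called lower and 1.22% higher), with a median of −0.22. It lay below jmjd-3.1/2/3 without overlap for 14 members and above for 4 (7.68% and 9.33% of all genes). cutl-5 stood at 1.14, 2.22, 2.31 and 1.76 CPM in the quadruple mutant, against 5.74, 7.19, 3.88 and 5.32 CPM in jmjd-3.1/2/3 (−1.65 ± 0.27, adjusted p = 0.0002). nas-23 stood at 8.49, 8.16, 12.7 and 8.00 CPM in the quadruple mutant, against 27.4, 26.3, 12.3 and 22.3 CPM in jmjd-3.1/2/3 (−1.23 ± 0.28). cutl-8 stood at 2.69, 2.97, 3.32 and 2.98 CPM, against 8.68, 8.03, 4.2 and 6.91 CPM in jmjd-3.1/2/3 (−1.22 ± 0.31), and lpr-7 was the fourth (−1.16 ± 0.25). Without jmjd-3.1/2/3 culture 1 there was 1 call, and without its culture 2 or quadruple mutant culture 1 or 4 there were 2. As above, the shares of all tested genes in these fits are not given.

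In the double mutant against jmjd-5(zr1234), no member was called in either direction by edgeR or by DESeq2, where 0.251% of all tested genes were called higher and 0.232% lower. An unadjusted p under 0.05 was reached by 5 members and by 18.1% of all tested genes. The median was 0.04, against 0.05 over all tested genes, and the members ran from −1.15 to 0.77. The cultures of the double mutant lay above without overlap for 1 member and below for 2 (6.31% and 6.91% of all genes). Against jmjd-1.2(zr1010), 4 members rose in the double mutant and 77 were not called (1.19% of all tested genes were called higher and 0.341% lower), and the median was 0.34, against 0.03 over all tested genes, with 73 of the 81 members positive. It lay above jmjd-1.2(zr1010) without overlap for 8 members and below for 0 (6.02% and 5.82% of all genes). cutl-13 stood at 2.78, 1.48, 3.08 and 2.06 CPM in the double mutant, against 0.946, 0.633, 0.943 and 0.895 CPM in jmjd-1.2(zr1010) (1.47 ± 0.29). lpr-1 stood at 13.2, 5.33, 6.99 and 10.6 CPM in the double mutant, against 4.14, 4.27, 5 and 3.43 CPM in jmjd-1.2(zr1010) (1.15 ± 0.23). lpr-3 stood at 73.4, 32.9, 51.2 and 67.6 CPM, against 29.7, 17.7, 29.1 and 26.5 CPM in jmjd-1.2(zr1010) (1.15 ± 0.28), and lpr-5 was the fourth (1.1 ± 0.22). The 4 calls became 1 without double mutant culture 1, 7 without its culture 2, and 8 without both shallow libraries, a setting added after the data were seen. Shares of all tested genes are not given for these fits either.

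The compound strains were compared with the sum of their component changes by an interaction term, which is the log2 fold change of the compound strain minus those of its 2 components, all over N2. For jmjd-5 with jmjd-3.1/2/3, the compound strain was lower than the sum for 48 members and higher for 2 by call, where 16.1% and 2.36% of all tested genes were called, and the median was −1.84, against −0.01 over all tested genes. For jmjd-5 with jmjd-1.2, 29 members were lower than the sum and 52 were not called (6.99% of all tested genes were called lower), with a median of −1.04, against −0.07. nas-6 was the lowest of the called members in both, at −4.25 ± 0.51 and −3.32 ± 0.50, and its log2 fold changes over N2 were 3.61 in jmjd-5(zr1234), 3.18 in jmjd-3.1/2/3, 3.45 in jmjd-1.2(zr1010), 2.53 in the quadruple and 3.74 in the double mutant. cutl-8 (−4.19 ± 0.55) and nas-23 (−3.96 ± 0.48) followed for the jmjd-3.1/2/3 combination. The 2 members above the sum were nas-3 (2.83 ± 0.50), which fell in all of the strains concerned, and nas-17 (3.06 ± 0.96), whose call was lost in 17 of the 24 fits that leave out 1 library. nas-3 held 8 to 12 counts a library in jmjd-5(zr1234) and 8 to 22 in jmjd-3.1/2/3, so that little room was left for a lower level. The same N2 libraries enter the interaction term for every member, so that the members' values are not independent of each other. N2 enters it with a plus sign. A member that is lower in N2 than in mutants at like levels therefore has a negative term, and N2 had the lowest mean for 65 of the 81 members.

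**Figure D4:**
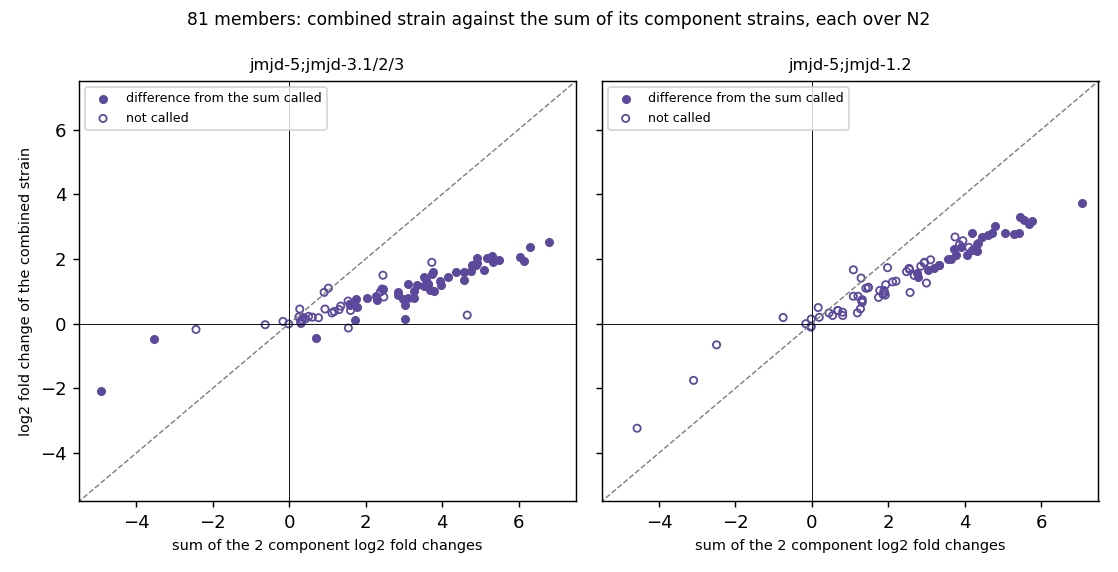
log2 fold change of a compound strain against N2 (vertical axis) set against the sum of the log2 fold changes of its 2 component strains against N2 (horizontal axis), for 81 members in the quadruple mutant (left) and the double mutant (right); the dashed line marks equality and filled points were called in the interaction term. 48 members on the left and 29 on the right were called below the line, and 2 on the left above it, both with negative sums.

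Other genes known for moulting or the apical matrix also included many that rose. Of 35 tested genes of such a list (38 names, 36 in the tables), 14 rose in jmjd-5(zr1234), 11 in jmjd-1.2(zr1010), 10 in jmjd-3.1/2/3, 8 in the quadruple mutant and 14 in the double mutant, and the medians in that order of strains were 0.78, 0.65, 0.55, 0.38 and 0.79. In the same order, 16.5%, 8.71%, 10.2%, 7.75% and 16.8% of all tested genes were called higher. In jmjd-5(zr1234) the largest were ptr-4, a patched-related membrane protein (2.76), and wrt-10, a hedgehog-like secreted protein (2.74). lin-42, the Period-like regulator of the moulting rhythm, rose by 2.29 in jmjd-5(zr1234), and nhr-23, the nuclear receptor that drives many moulting genes, changed by −0.03 ± 0.06 and was not called. Of 121 tested collagen genes named col-, 53 rose and 1 fell in jmjd-5(zr1234) (16.5% and 1.53% of all tested genes), with a median of 0.79.

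Some tissue markers moved alongside. Of 7 tested epidermal markers, 3 rose in jmjd-5(zr1234) (dpy-7, bus-8 and che-14, the last also in the list above), where 16.5% of all tested genes were called higher. The 8 genes of the list summed to 517 to 549 CPM in jmjd-5(zr1234), 443 to 494 CPM in jmjd-1.2(zr1010), 420 to 510 CPM in jmjd-3.1/2/3, 394 to 495 CPM in the quadruple mutant and 425 to 565 CPM in the double mutant, against 350 to 381 CPM in N2. ajm-1, a protein of epithelial junctions, made up most of that sum, with 298 to 314 CPM in jmjd-5(zr1234), against 185 to 200 CPM in N2 (0.67 ± 0.10, not called). lin-26, which specifies epidermal fate, differed the other way, with 77.5 to 83.5 CPM in jmjd-5(zr1234), against 97.7 to 116 CPM in N2 (−0.38 ± 0.05, not called). The medians of the pharyngeal markers were 0.84 in jmjd-5(zr1234), 0.55 in jmjd-1.2(zr1010), 0.04 in jmjd-3.1/2/3, 0.12 in the quadruple mutant and 0.56 in the double mutant, and of these markers myo-2 rose in jmjd-5(zr1234) and ceh-22 in the double mutant. Of 5 body muscle markers, unc-89 rose in jmjd-5(zr1234) (1.26), but the median of the 5 there was −0.17 and the lowest value −0.59. Of 8 sperm markers, spe-9 rose in jmjd-5(zr1234) (1.41), the quadruple mutant (1.00) and the double mutant (1.44). Of the intestinal and neuronal markers, 7 each, none was called against N2.

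The 8 oocyte and eggshell markers were lower in every mutant but none was called, with medians of −0.71 in jmjd-5(zr1234), −0.62 in jmjd-1.2(zr1010), −0.53 in jmjd-3.1/2/3, −0.34 in the quadruple mutant and −0.49 in the double mutant, and they summed to 2606 to 2827 CPM in jmjd-5(zr1234), against 3590 to 4919 CPM in N2. The median of the 7 germline markers was −0.45 there. The adult collagens col-7, col-19 and col-62, which mark the adult stage, were present in all libraries and none was called. They differed in direction in jmjd-5(zr1234). col-19 stood at 213 to 247 CPM there, against 263 to 442 CPM in N2. col-7 stood at 32.9 to 38.8 CPM, against 17.5 to 29.9 CPM in N2, and col-62 at 33.0 to 35.5 CPM, against 17.5 to 31.9 CPM. No marker of these lists was at 0 throughout a strain. In whole worms, more epidermal or pharyngeal cells, or fewer germ cells, cannot be told apart from more or less RNA per cell, nor a shift in the age of the animals from either, and the part of these markers in the members' changes was not tested. The N2 libraries were also shallower than most mutant libraries, so that depth and strain overlap. When the model also held each library's total, the number of members that rose stayed within 1.5 times its value in 4 strains. It was 17 in the quadruple mutant, in place of 28. The share of all tested genes called in that fit is not given.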

How the data were processed

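RNA of whole young adults was sequenced in 24 libraries. The kit, TruSeq RNA v2, does not mark strand. The raw counts per gene were deposited by the authors and used as they stand. Per the study's methods, STAR alignment to ce10 was followed by removal of multiply matching reads and of duplicates (samblaster), and by featureCounts. Their tables of called genes (fold changes, p-values) and their ChIP peak lists were not used, and neither were germline libraries.

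Counts were fitted over all genes with edgeR 4.0.16 in R 4.3.3 (TMM scaling, filterByExpr with a minimum count of 10, quasi-likelihood test, a term for strain alone, 24 libraries in 1 fit). A call needed an adjusted p under 0.01 with a log2 fold change no smaller than 1 in size. Fold changes are in edgeR's log2 scale and ± marks their SE. The study's methods describe the cultures as independent, which the counts alone cannot show. Over all genes, 1 pair of N2 libraries differed by no more than counting noise (mean chi-square 0.963). P-values rest on the spread between cultures pooled over all strains in the fit, and not on that of the compared strains alone. The median spread of the members differed by strain, from 0.21 in jmjd-5(zr1234) to 0.47 in the double mutant. Same-numbered cultures were not treated as pairs, and the labels do not say whether they share an origin. No comparison had every correlation of same-numbered deviations above 0.1. For the double mutant and jmjd-1.2(zr1010) the correlations were 0.35, 0.55, 0.07 and −0.23 for cultures 1 to 4. All 89 names matched RefSeq symbols of WBcel235, used for neighbour order only.

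Members and gene lists were chosen with earlier results of these data known. Members named in the text are those with a known role, and in each comparison the called members with the largest changes (5 in each direction against N2, 3 elsewhere); other members were added where they bear on those. nas-11, nas-20, nas-21, nas-22, cutl-27, cut-3, cut-4, lpr-2, lpr-5, lpr-6, lpr-7, lin-42 and nhr-23 of the other moulting genes, and the markers lin-26 and ajm-1 were added after their values were seen. The CPM of col-7, col-19 and col-62 were likewise added after they were seen. Alternatives were DESeq2 1.42.0, other scaling, filters, thresholds, library total as a term, thinning to the smallest library, summing nearly equal libraries, the replicate block, and leaving out each library. The fit was tested on simulated counts with 1 constant spread and 3-fold changes in 200 genes, of which 191 to 200 were recovered. No change was placed in genes of low count, and the wider spread of the members was not simulated. The simulation therefore says little of such calls. Promoter motifs and sequences were not analysed here.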

Additional observations from a re-analysis of the deposited data

Results flagged for a closer look

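For 28 values shown by strain (27 members and the sum of all members), each culture was compared with the other 3 of its strain, and 6 of the 168 groups held a culture far from the rest by Dixon's criterion, where chance flags about 1 in 20. fbn-1 stood at 18.96 CPM in culture 3 of jmjd-1.2(zr1010) and at 10.9 to 11.4 CPM in the others. In the quadruple mutant, culture 3 held 46.9 CPM of nas-7 (others 41.9 to 42.6) and 12.7 CPM of nas-23 (others 8.00 to 8.49), and culture 2 held 167 CPM of nas-11 (others 138 to 143). In N2, culture 2 held 1.58 CPM of lpr-1 (others 1.43 to 1.44) and 7.24 CPM of lpr-4 (others 3.16 to 3.65).

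The effect of jmjd-5 loss differed between N2 and the other mutant background by the interaction term, which a low level in N2 makes lower. For the jmjd-3.1/2/3 background, 48 members were called lower and 2 higher (16.1% and 2.36% of all tested genes), with log2 values of −4.25 for nas-6, −4.19 for cutl-8, −3.96 for nas-23, 2.83 for nas-3 and 3.06 for nas-17. The share of members called higher is near that of all genes. nas-17 rests on few counts, as does nas-3 in the mutants. The nas-17 call held in 14 of the alternatives tried and was lost in 22. For the jmjd-1.2 background, 29 were called lower (6.99% of all tested genes), with −3.32 for nas-6, −2.62 for nas-15 and −2.61 for nas-23. The causes were not tested.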

How the results depend on the processing

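Alternatives to the fit changed counts of called members as follows (members that rose or fell are counted against the second strain named). The shares of all tested genes called under each alternative are not given here. The counts therefore show how the calls of members move with the setting, and not how members compare with all genes. Leaving out 1 library gave 44 to 50 risen and 1 to 1 fallen in jmjd-5(zr1234), 35 to 39 and 1 to 3 in jmjd-1.2(zr1010), 37 to 42 and 1 to 3 in jmjd-3.1/2/3, 20 to 31 and 1 to 1 in the quadruple mutant, and 46 to 54 and 1 to 2 in the double mutant, all against N2. For the quadruple mutant it gave 0 to 12 fallen against jmjd-5(zr1234) and 1 to 6 against jmjd-3.1/2/3, and for the double mutant against jmjd-1.2(zr1010) 1 to 7 risen and 0 to 1 fallen. The interaction with jmjd-3.1/2/3 gave 43 to 52 lower and 1 to 3 higher, and that with jmjd-1.2 gave 24 to 36 lower. jmjd-1.2(zr1010) had 1 fallen member without its culture 1, 3 or 4 or N2 culture 2 or 3, jmjd-3.1/2/3 had 1 without its culture 2 or 4 or N2 culture 2, and the double mutant had 2 without its culture 4.

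Testing against a log2 value of 1 was the strictest setting: 24 members rose in jmjd-5(zr1234), 7 in jmjd-1.2(zr1010) with 0 fallen, 16 in jmjd-3.1/2/3 with 1 fallen, and 0 in the quadruple mutant with 0 fallen, where the contrasts among mutants gave 0 and the interactions gave 30 lower and 1 higher (jmjd-3.1/2/3) and 1 lower (jmjd-1.2). With the library total as a term, 17 rose in the quadruple mutant and 8 fell there against jmjd-3.1/2/3, 9 rose in the double mutant against jmjd-1.2(zr1010), 1 fell in jmjd-1.2(zr1010), 18 were lower in the jmjd-1.2 interaction, and mlt-4 (−0.0134) and let-653 (−0.0056) turned sign in jmjd-5(zr1234), neither called. At an adjusted p under 0.05, 2 fell in the double mutant, 2 rose and 7 fell in the quadruple mutant against jmjd-3.1/2/3, and 7 rose and 1 fell in the double mutant against jmjd-1.2(zr1010). With no minimum fold, 16 fell in the quadruple mutant against jmjd-5(zr1234) and 10 against jmjd-3.1/2/3. DESeq2 gave 2 fallen in the double mutant and 1 against jmjd-1.2(zr1010). Fitting only the strains compared gave 1 fallen in jmjd-1.2(zr1010), 1 in jmjd-3.1/2/3, 2 in the quadruple mutant against jmjd-3.1/2/3, and 0 risen in the double mutant against jmjd-1.2(zr1010). Thinning gave 1, 1 and, for the last, 2. Summing nearly equal libraries gave 1 fallen in the quadruple mutant against jmjd-5(zr1234), and leaving out both shallow libraries, added after the data were seen, gave 8 risen in the double mutant against jmjd-1.2(zr1010). The jmjd-3.1/2/3 interaction had 1 higher with no filter, with a CPM of at least 1 in 4 libraries, with thinning and with summed libraries. The causes were not tested.

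The labels do not say whether same-numbered cultures of different strains share an origin. A replicate block on the number gave 10 fallen in the quadruple mutant against jmjd-5(zr1234) and 1 higher in the jmjd-3.1/2/3 interaction. Members under 5 CPM rest on few counts, and their changes are the least precise. The planned promoter search was not run, for want of a sequence table here.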
